A study of Mus musculus with 7 samples.

Results

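The proteasome is the barrel-shaped protease that degrades ubiquitin-tagged proteins, and its subunit genes were followed here in samples labelled as CD8+ T cells from tumour-bearing mice. The 51 genes described were those of 56422 gene symbols whose name begins with Psma, Psmb, Psmc, Psmd, Psme, Psmf or Psmg and a number, with the 5 pseudogene symbols that carry -ps left out (none of those above 0.62 TPM in any library). They were chosen by name, with earlier results of these data known. TPM is a length-corrected share of a library's messenger RNA, summed here over the transcript rows of each symbol.

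Messenger RNA had been sequenced in 7 libraries of cells taken from ascites, the abdominal fluid of mice modelling peritoneal metastasis, in a series on mannose, PD-1 blockade and ovarian cancer. The 4 control libraries came from mice given no treatment and the 3 treated libraries from mice given propionate together with butyrate, short-chain fatty acids that gut bacteria make. Strain, age, dose, duration and tumour model were not given in the sources used here, nor whether libraries came from different animals. The p-values therefore rest on how far these samples spread, and that spread may be technical. One treated column carried a number that no treated sample has, and it is called the third treated library.

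The labelled cell type was only partly borne out by its markers. Cd8a, which encodes part of the CD8 receptor that gives these cells their name, averaged 14.1 TPM in control and 136 TPM in treated libraries, beside 5056 and 1772 TPM of Apoe, which macrophages express. The summed TPM of 19 T cell identity genes ran from 158 to 279.7 in control and from 781 to 3303 in treated libraries. All 19 passed the test as higher, beside 4.3% of all tested genes, and none was under 1 TPM in every library. Sums of tumour epithelium and mesothelium markers ran the other way, from 2349 to 2812 in control and from 885 to 1686 in treated libraries, with Cldn4 and Cldn7 of its 15 genes under 1 TPM throughout. Of the 12 tested, 8 passed as lower, beside 7.59% of all tested genes, and 1, Cdh1, had a positive log2 fold change (0.04). Macrophage and monocyte markers summed to between 6407 and 15523 TPM in control and between 3993 and 4485 TPM in treated libraries, with none of the 19 under 1 TPM in every library. Apoe and Lyz2 made up most of that sum, and single genes went both ways. Of the 19, 3 passed as lower and 2 as higher (Ly6c2 and Icam2), beside 7.59% and 4.3% of all tested genes. The third treated library held 32.9% of its TPM in mitochondrially encoded genes, against 13.6% to 18.2% in the other 6, which leaves less of the fixed TPM total to all other genes. In bulk samples, fewer cells of a type and less RNA per cell cannot be told apart.

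The standard proteasome has a 20S core of 4 stacked rings, with alpha subunits (Psma genes) outside and beta subunits (Psmb genes) inside, and the cutting is done by the products of Psmb5, Psmb6 and Psmb7. A 19S cap unfolds the substrate with ATPases (Psmc genes) and binds ubiquitin chains with non-ATPase subunits (Psmd genes). In lymphocytes, in antigen-presenting cells and in cells exposed to interferon gamma, the products of Psmb8, Psmb9 and Psmb10 replace those of Psmb5, Psmb6 and Psmb7 in newly built cores. The result is the immunoproteasome, which favours peptides that fit major histocompatibility complex (MHC) class I. Psme1 and Psme2 encode the alpha and beta chains of PA28, a ring that opens the core and is also induced by interferon gamma.

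Treated against control, immunoproteasome beta genes and constitutive subunit genes lay on opposite sides of 0, but few single genes passed the test. Of the 51 genes 49 reached 1 TPM in 3 or more libraries and were tested with limma on log2(TPM + 1). At a Benjamini-Hochberg adjusted p under 0.05 over all 14967 tested genes, 1 member was higher, Psme2b, where 4.3% of all tested genes were. One member was lower, Psmc3ip, where 7.59% of all tested genes were. At an unadjusted p under 0.05 there were 2 higher members (6.87% of all tested genes were) and 19 lower ones (23.6% of all tested genes were). The members' median log2 fold change was -0.38, beside -0.24 over all tested genes. That background shift was near 0 when libraries were scaled by median of ratios, with a median of -0.0046 over all tested genes and -0.11 over the members. With that scaling 2 members passed as higher (Psme2b and Psmb9), beside 8.71% of all tested genes, and 2 as lower (Psmc3ip and Psmd12), beside 6.38%. Among all called genes, 36.1% were higher on the TPM scale and 57.7% with median-of-ratios scaling.

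**Figure D1:**
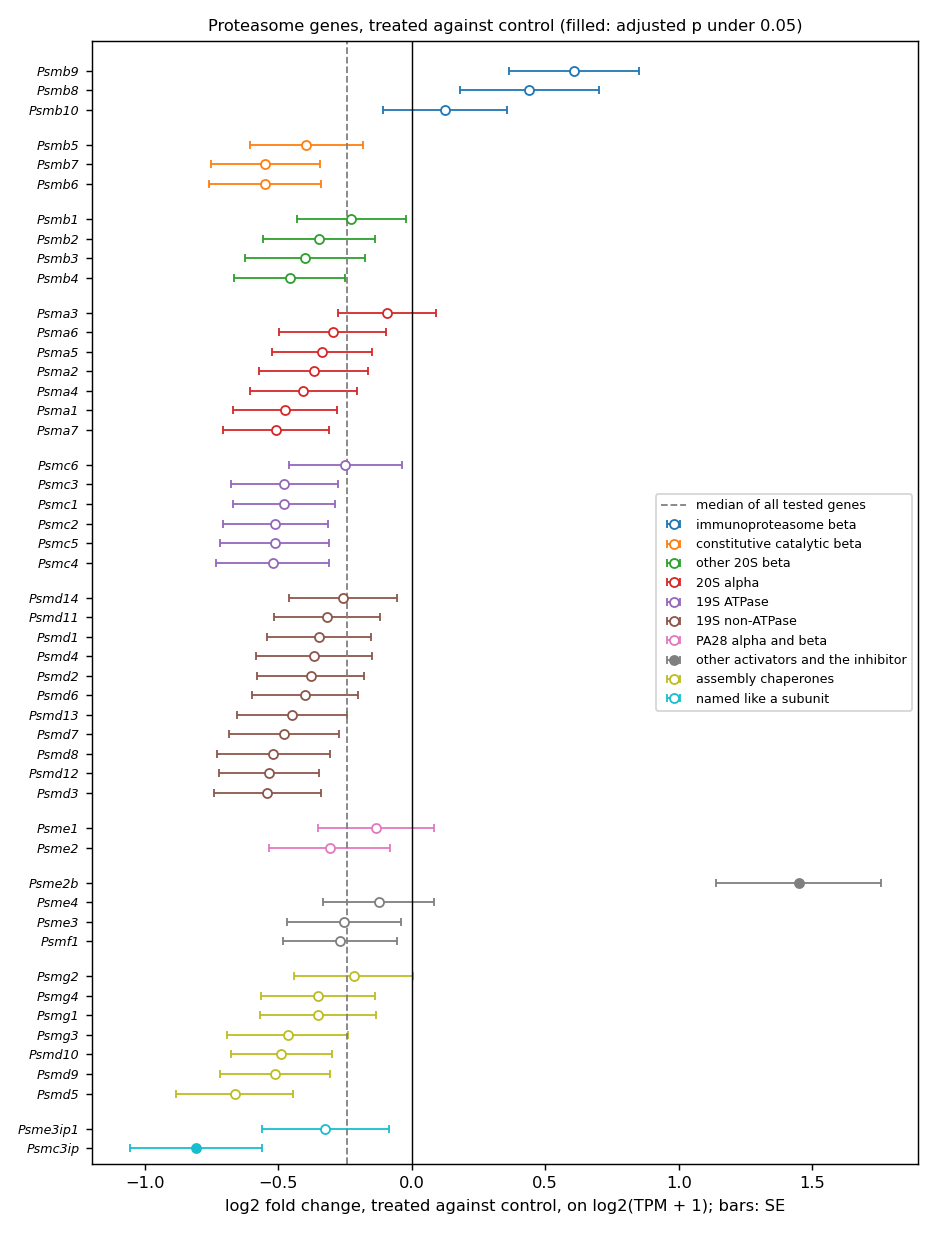
Log2 fold change (x axis, on log2(TPM + 1), treated against control) of the 49 tested proteasome genes, ordered by role (y axis), with the standard error as bars, filled symbols for an adjusted p under 0.05 and a dashed line at the median of all tested genes. Psmb8, Psmb9 and Psmb10 sit to the right of 0, all 31 constitutive subunits sit to the left, and only Psme2b and Psmc3ip are filled.

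Promoter sequences of 4 catalytic genes are shown because these genes form the replacement pairs on which the comparison turns. They are the 250 bases before the RefSeq start site, 5′ to 3′ on the gene's strand, from the GRCm38.p6 build, which is older than the mm39 build named in the submitters' processing notes, and were matched by symbol. Capitals mark matches, on either strand, to a gamma-activated site (TTCNNNGAA, an element of interferon gamma response), an interferon-stimulated response element (GAAA, any 2 bases, GAAA), an antioxidant response element (TGACNNNGC, bound by NFE2L1 and NFE2L2) or a CCAAT box. The first pair is Psmb8 (chr17:34197945-34198194, plus strand) and Psmb5 (chr14:54617996-54618245, minus strand), and the second is Psmb9 (chr17:34187331-34187580, minus strand) and Psmb6 (chr11:70525107-70525356, plus strand).
Psmb8: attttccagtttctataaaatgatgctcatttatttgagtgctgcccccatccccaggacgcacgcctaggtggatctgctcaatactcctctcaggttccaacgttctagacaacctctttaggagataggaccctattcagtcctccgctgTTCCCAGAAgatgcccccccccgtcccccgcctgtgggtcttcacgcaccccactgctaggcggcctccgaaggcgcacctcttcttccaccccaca
Psmb5: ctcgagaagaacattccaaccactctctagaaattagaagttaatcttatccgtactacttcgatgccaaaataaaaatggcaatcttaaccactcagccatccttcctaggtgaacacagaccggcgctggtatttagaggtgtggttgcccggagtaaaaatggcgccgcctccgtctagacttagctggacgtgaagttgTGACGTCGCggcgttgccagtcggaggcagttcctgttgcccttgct
Psmb9: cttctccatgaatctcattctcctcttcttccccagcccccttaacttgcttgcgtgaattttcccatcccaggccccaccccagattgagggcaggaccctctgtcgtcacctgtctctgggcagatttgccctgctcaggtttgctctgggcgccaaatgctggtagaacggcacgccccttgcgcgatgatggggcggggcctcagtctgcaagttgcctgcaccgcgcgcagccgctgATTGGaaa
Psmb6: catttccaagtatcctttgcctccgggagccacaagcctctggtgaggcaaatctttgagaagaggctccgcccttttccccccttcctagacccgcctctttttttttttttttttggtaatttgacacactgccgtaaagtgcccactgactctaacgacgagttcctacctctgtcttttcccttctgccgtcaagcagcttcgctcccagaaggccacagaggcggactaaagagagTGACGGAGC
The Psmb8 window held the gamma-activated letters TTCCCAGAA from 97 to 89 bases before the start, and the Psmb9 window held a CCAAT box on its opposite strand. Both constitutive windows held an antioxidant response element, TGACGTCGC from 47 to 39 bases before the start in Psmb5 and TGACGGAGC from 9 bases to 1 base before it in Psmb6. Promoter entries existed for 43 of the 51 genes. Among the 25 constitutive subunits with an entry, 4 held an antioxidant response element (16%: Psmb5, Psmb6, Psmc6 and Psmd12), beside 11.5% of 27025 genes. The interferon-stimulated element was present in 2 of the 25 (8%: Psmb3 and Psmd4) and 3.46% of all genes, the gamma-activated site in 0 and 8.13%, and the CCAAT box in 10 (40%) and 37.5%. Of Psmb8, Psmb9 and Psmb10, 1 of 3 held a gamma-activated site (Psmb8) and 0 held the interferon-stimulated element. Neither element was present in Psme1 or Psme2, and the Psmb10 window, not shown, held no match to any motif searched. A match of letters is a description of the sequence and not a binding site.

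Psmb8 encodes the immunoproteasome subunit that replaces the product of Psmb5, the chymotrypsin-like subunit. Psmb8 stood at 179.5, 118, 148 and 117 TPM in control replicates 1 to 4, and at 174 and 292 TPM in treated replicates 1 and 2 and 131 TPM in the third treated library. Only treated replicate 2 lay outside the control range. Psmb5 stood at 79.5, 99.7, 93.5 and 82.9 TPM in control libraries and at 72.9, 84.2 and 49.1 TPM in treated libraries in the same order, so these groups overlapped too. The log2 fold change of Psmb8 was 0.44 (SE 0.26, limma Benjamini-Hochberg adjusted p = 0.264), and that of Psmb5 was -0.40 (SE 0.21, adjusted p = 0.219). Without treated replicate 2 the value for Psmb8 was 0.12 (limma adjusted p = 0.763), and with array weights, which count some libraries less, it was 0.88 (adjusted p = 0.00952). With those weights 2246 of 14967 tested genes passed as higher, where 643 did in the main fit.

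Psmb9, whose product takes the place of the caspase-like subunit Psmb6, had the largest log2 fold change of the 3 immunoproteasome beta genes. Psmb9 was at 77.3, 52.0, 56.5 and 49.8 TPM in control replicates 1 to 4, and at 88.6, 126 and 62.7 TPM in treated replicates 1 and 2 and the third treated library. Treated replicates 1 and 2 exceeded every control library, and the third treated library lay below control replicate 1. Psmb6 was at 203, 239.5, 209 and 185 TPM in control and at 174, 154 and 107 TPM in treated libraries. Every treated library was below every control library, as for 25.7% of all tested genes. The log2 fold change was 0.61 for Psmb9 (SE 0.24, limma adjusted p = 0.111) and -0.55 for Psmb6 (SE 0.21, adjusted p = 0.0964). The call for Psmb9 depended on the scaling and on 1 library. It passed with median-of-ratios scaling at 0.88 (limma adjusted p = 0.0228), after rescaling without mitochondrial and ribosomal protein genes at 0.77 (0.0478), and without the third treated library at 0.85 (0.0485). It was 0.36 without treated replicate 2 (limma adjusted p = 0.360) and when only the highest of its transcript rows was used.

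Psmb10 supplies the immunoproteasome's trypsin-like subunit in place of Psmb7. Psmb10 was at 67.9, 52.5, 57.1 and 44.3 TPM in control and at 60.7, 81.6 and 43.2 TPM in treated libraries. Treated replicate 2 lay above the control range, the third treated library just below it and treated replicate 1 within it. Psmb7 was at 193, 223, 202 and 194 TPM in control and at 172, 146 and 105 TPM in treated libraries, with no overlap, beside 25.7% of all tested genes that lay below without overlap. The log2 fold changes were 0.12 for Psmb10 (SE 0.23, limma adjusted p = 0.740) and -0.55 for Psmb7 (SE 0.20, adjusted p = 0.0917). Psmb10 was at -0.10 without treated replicate 2.

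**Figure D2:**
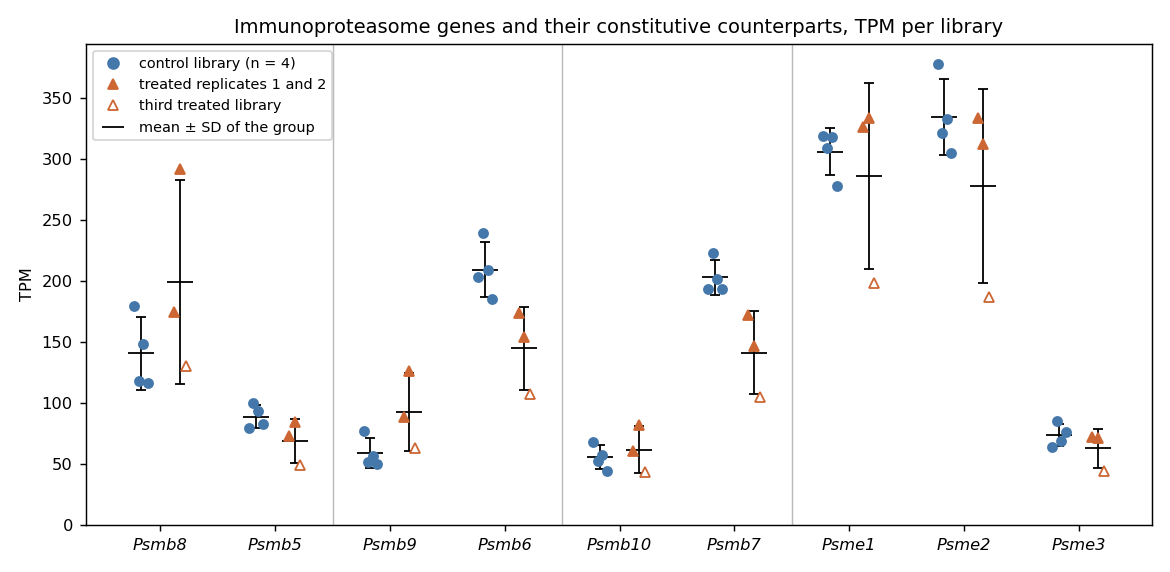
TPM (y axis) of the immunoproteasome genes and their constitutive counterparts (x axis) in each control (circles) and treated (triangles) library, with the group mean and SD. Treated replicate 2 is highest for Psmb8, Psmb9 and Psmb10, at 292, 126 and 81.6 TPM, and the third treated library is lowest for each of the 3 genes Psmb5, Psmb6 and Psmb7.

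A ratio of 2 genes within a library does not change with that library's scaling, so the pairs were compared as ratios. Psmb9 to Psmb6 was 0.380, 0.217, 0.271 and 0.269 in control libraries and 0.510, 0.820 and 0.586 in treated libraries. Psmb8 to Psmb5 was 2.26, 1.18, 1.59 and 1.41 in control and 2.39, 3.47 and 2.66 in treated libraries. Psmb10 to Psmb7 was 0.351, 0.235, 0.283 and 0.228 in control and 0.352, 0.557 and 0.412 in treated libraries. In all 3 pairs every treated library lay above every control library, for Psmb10 by a margin in the third decimal. On log2(TPM + 1) the treated libraries were higher by 1.16 for Psmb9 to Psmb6, by 0.84 for Psmb8 to Psmb5 and by 0.67 for Psmb10 to Psmb7, or 2.23-fold, 1.79-fold and 1.59-fold. The two-sided exact permutation p was 0.0286 for Psmb9 to Psmb6, the smallest that 35 splits allow, and 0.0571 for each of the other pairs. Adjusted over the 5 ratios computed, each of these 3 had a permutation p of 0.0952 and did not pass.

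Such a separation was common among genes set against these denominators. Against Psmb5, 24.3% of all tested genes lay higher in every treated library than in any control library, against Psmb6 38.8% and against Psmb7 42.8%. The 3 ratios therefore do not stand apart by the separation alone. Differences kept their direction without each library in turn, from 0.96 to 1.30 for Psmb9 to Psmb6, from 0.68 to 1.01 for Psmb8 to Psmb5 and from 0.49 to 0.82 for Psmb10 to Psmb7. Summed over the 6 catalytic genes, the immunoproteasome genes held 28.4% to 40.5% of TPM in control and 43.6% to 56.5% in treated libraries (33.6% ± 5.2, SD, n = 4, and 49.2% ± 6.63, SD, n = 3). By library the share was 40.5%, 28.4%, 34.2% and 31.3% in control replicates 1 to 4, 43.6% and 56.5% in treated replicates 1 and 2, and 47.5% in the third treated library. In the same order the T cell identity sums were 211, 233, 158 and 279.7 TPM, 1474 and 3303 TPM, and 781 TPM. Control replicate 1 had the highest share among controls without the highest T cell sum, and treated replicate 2 had the highest of both. The part of cell composition in the difference was not tested.

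**Figure D3:**
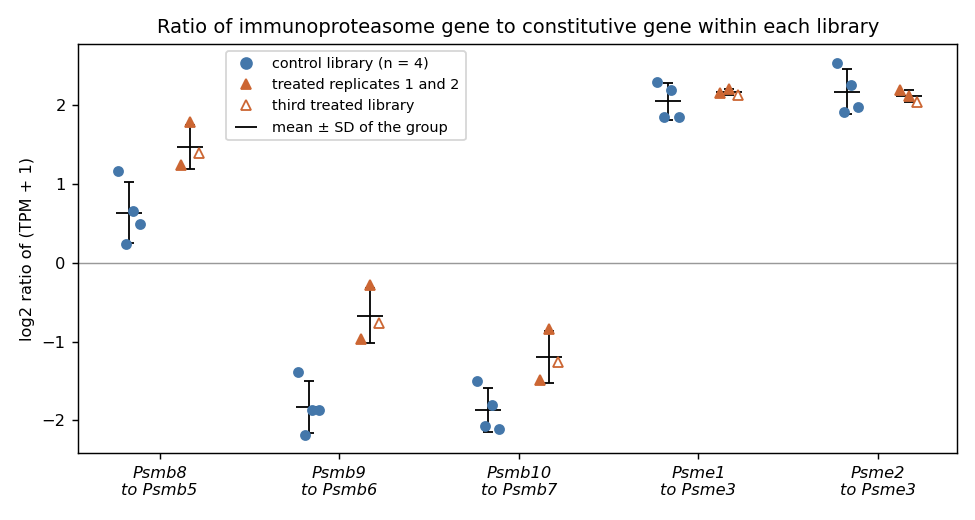
Log2 ratio of the TPM + 1 values of an immunoproteasome gene and its constitutive counterpart (y axis) for 5 pairs (x axis), one symbol per library, with group means and SD. Treated libraries lie above control libraries for Psmb8 to Psmb5, Psmb9 to Psmb6 and Psmb10 to Psmb7, and within the control range for both PA28 ratios.

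The genes of PA28, the interferon-inducible activator, had negative log2 fold changes on the TPM scale, where the 3 immunoproteasome beta genes had positive ones. Psme2 and Psme1 had the highest mean TPM of the 51 genes, at 310.0 and 298 over the 7 libraries. Psme1 was at 319, 309, 318 and 278 TPM in control and at 327, 334 and 198 TPM in treated libraries. Treated replicates 1 and 2 were just above the control range and the third treated library below it. Psme2 was at 378, 321, 333 and 305 TPM in control and at 334, 313 and 187 TPM in treated libraries, of which only the last lay outside the control range. The log2 fold changes were -0.13 for Psme1 (SE 0.22, limma adjusted p = 0.704) and -0.31 for Psme2 (SE 0.23, adjusted p = 0.366). Psme1 changed sign with scaling, to 0.14 with median of ratios.

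Psme3 encodes the third PA28 chain, which forms a ring of its own in the nucleus. It was at 64.0, 84.8, 68.8 and 76.5 TPM in control and at 72.3, 71.4 and 44.4 TPM in treated libraries, with a log2 fold change of -0.25 (SE 0.21, limma adjusted p = 0.436). Psme3 was at 0.02 with median-of-ratios scaling. The ratio of Psme1 to Psme3 was 3.63 to 4.99 in control and 4.46 to 4.68 in treated libraries, a log2 difference of 0.12 (exact permutation p = 0.4, adjusted 0.5). The ratio of Psme2 to Psme3 was 3.79 to 5.90 in control and 4.20 to 4.61 in treated libraries, a log2 difference of -0.06 (exact permutation p = 0.8, adjusted 0.8). Against Psme3, 13.4% of all tested genes were higher in every treated library than in any control library, and neither PA28 gene was among them. The spread of both ratios was narrower among the treated libraries (SD 0.113 and 0.206) than among the controls (SD 0.691 and 0.962).

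Set against the constitutive median of each library on log2(TPM + 1), Psme1 differed in the same direction as the beta genes. It stood above that median by 1.70, 1.504, 1.60 and 1.57 in control replicates 1 to 4 and by 1.91, 1.97 and 1.79 in treated libraries, every treated library being higher. Psme2 stood above it by 1.56 to 1.94 in control and by 1.71 to 1.94 in treated libraries, which overlapped. Psmb8 ran from 0.12 to 0.87 in control and from 1.01 to 1.78 in treated libraries, Psmb9 from -1.05 to -0.33 and from 0.04 to 0.58, and Psmb10 from -1.06 to -0.52 and from -0.50 to -0.05. Of all tested genes outside the 31, 31.8% were likewise higher in every treated library on this scale, so the separation by itself was common.

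The 1 member that rose was Psme2b, a near copy of Psme2 that is listed as a gene of its own. It was at 2.14, 2.04, 2.45 and 3.53 TPM in control and at 5.70, 16.4 and 6.43 TPM in treated libraries, so every treated library was above every control library, which held for 4.82% of all tested genes. The control mean of 2.54 ± 0.683 TPM (SD, n = 4) and the treated mean of 9.52 ± 5.99 TPM (SD, n = 3) gave a log2 fold change of 1.45 (SE 0.31, limma adjusted p = 0.00817). A pseudocount of 5 gave 0.87, array weights gave 2.08 and leaving out treated replicate 2 gave 1.01, and the call was lost with no filter on low values (limma adjusted p = 0.102). Psme2b shares sequence with Psme2 and overlaps 9930111J21Rik1, an interferon-inducible GTPase gene, in RefSeq, so the origin of its reads is uncertain. 9930111J21Rik1 was at 0.57 to 2.51 TPM in control and at 2.86 to 6.22 TPM in treated libraries, for a log2 fold change of 1.17 (SE 0.30, limma adjusted p = 0.0239), and was named after its value was seen.

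The constitutive subunits formed a block with small differences in 1 direction. All 31 had a negative log2 fold change, beside 73.4% of all tested genes, with a median of -0.41 and a range from -0.55 (Psmb6) to -0.09 (Psma3, named after its value was seen). None passed the test, and 15 had an unadjusted p under 0.05, beside 23.6% of all tested genes that were lower at that threshold. In 20 of the 31, every treated library was below every control library, beside 25.7% of all tested genes. With median-of-ratios scaling 27 of the 31 were negative, beside 50.6% of all tested genes, the median was -0.13, and 14 lay below without overlap, beside 16.6%. At that scaling 1 of the 31 passed as lower, Psmd12, beside 6.38% of all tested genes, and 1 lay above without overlap, beside 18.0%. Their TPM summed to 3732 ± 265 over the control (SD, n = 4) and 2824 ± 617 over the treated libraries (SD, n = 3). The third treated library was lowest, at 2112 TPM, where treated replicates 1 and 2 were at 3201 and 3159 and the lowest control library was at 3485.

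Within a library the constitutive subunits moved together. Set against each gene's control mean on log2(TPM + 1), the 31 had medians of -0.07, 0.11, 0.05 and -0.09 in control replicates 1 to 4. The medians were -0.24 and -0.21 in treated replicates 1 and 2 and -0.82 in the third treated library, where all 31 lay below their control mean. Over all tested genes the medians in those 3 libraries were -0.03, -0.12 and -0.58, and 87.1% of them lay below their control mean in the third treated library, so most of the shift there was shared by all genes. Psmb9 stood at 0.60, 1.11 and 0.11 on this scale in the treated libraries, above all 31 constitutive subunits in each. Psmb8 stood at 0.33, 1.07 and -0.08, also above all 31 in each. Psmb10 stood at 0.14, 0.57 and -0.34, above all 31 in treated replicates 1 and 2 but just under Psma3 in the third treated library, which was at -0.33. The same order was seen in control replicate 1, where Psmb8, Psmb9 and Psmb10 stood at 0.37, 0.41 and 0.30 and also above all 31, so it was not limited to treated libraries.

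**Figure D4:**
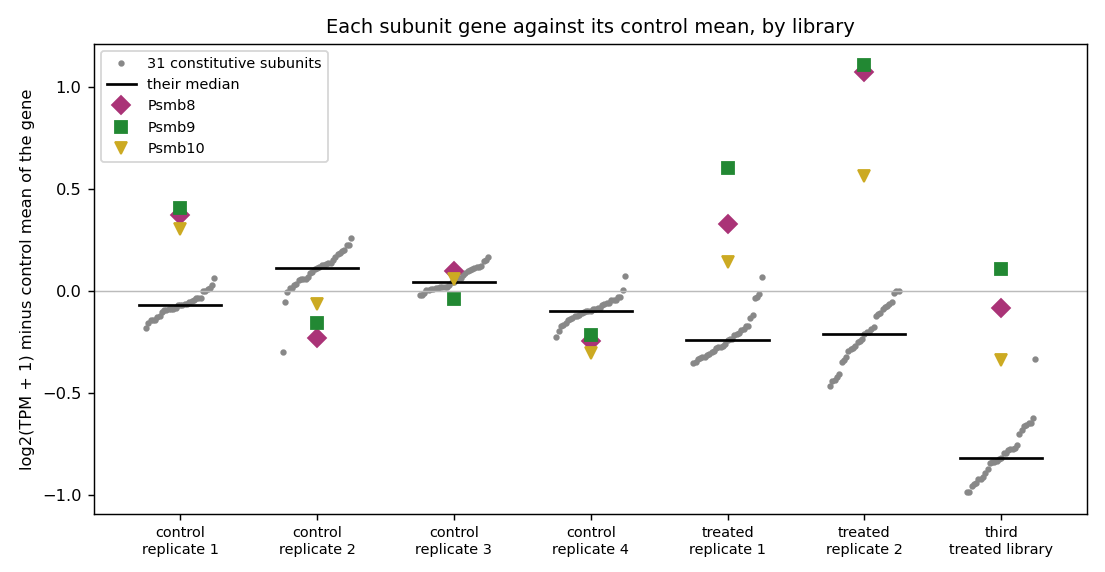
Difference of log2(TPM + 1) from the gene's control mean (y axis) in each library (x axis) for the 31 constitutive subunits (points, bar at their median) and the 3 immunoproteasome beta genes. The points shift down together in the treated libraries, to a median of -0.82 in the third treated library, while Psmb8 and Psmb9 stay above all of them there.

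In the outer alpha ring, Psma7 had the highest and Psma2 the lowest TPM of the 14 constitutive core genes in every library, with a ratio between them of 3.40 to 4.48. Psma7 was at 264, 288, 299 and 257 TPM in control and at 229, 207 and 155 TPM in treated libraries, for a log2 fold change of -0.51 (SE 0.20, limma adjusted p = 0.104). Every treated library was below every control library for Psma7, as for Psma1 (-0.47) and Psma4 (-0.41), whereas the groups overlapped for Psma2 (-0.37). In the inner ring the noncatalytic genes Psmb4, Psmb3, Psmb2 and Psmb1 had log2 fold changes of -0.46, -0.40, -0.35 and -0.23. Of these 4 only Psmb4 had no overlap, beside 25.7% of all tested genes that lay below without overlap. Psmb4 was at 198 to 235 TPM in control and 116 to 187 TPM in treated libraries, and Psmb1 changed sign with median-of-ratios scaling (0.04).

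The ATPases of the 19S base, which unfold the substrate and open the gate of the core, lay close together. The 6 genes had log2 fold changes from -0.52 to -0.25, beside a median of -0.24 over all tested genes. In 5 of the 6 every treated library was below every control library, beside 25.7% of all tested genes. Psmc2, the gene with the smallest p, was at 78.4, 86.8, 90.6 and 77.8 TPM in control and at 66.3, 65.6 and 45.1 TPM in treated libraries (log2 fold change -0.51, SE 0.20, limma adjusted p = 0.0988). Psmc1 and Psmc5 had log2 fold changes of -0.48 and -0.51. Psmc3 had the highest level of the 6, at 205 to 244 TPM in control and 124 to 195 TPM in treated libraries, without overlap.

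Among the 11 non-ATPase subunits of the 19S cap the log2 fold changes ran from -0.54 to -0.26. Psmd12, a subunit of the cap's lid, had the smallest p of all 31 constitutive subunits. It was at 63.4, 64.7, 64.2 and 60.8 TPM in control libraries, a narrow range, and at 49.5, 46.5 and 35.4 TPM in treated libraries, with no overlap. Its log2 fold change was -0.53 (SE 0.19, limma adjusted p = 0.0747), and it passed at -0.27 with median-of-ratios scaling (0.0493) and at -0.39 without the third treated library (0.0396). It did not pass after rescaling without mitochondrial and ribosomal protein genes (limma adjusted p = 0.0669) or with the highest transcript row (0.0769). Nor did it pass without treated replicate 2 (limma adjusted p = 0.139) or with the replicate block (0.332). The replicate block is a fit of replicates 1 and 2 of each group only. It called 138 of 14967 tested genes lower, where the main fit called 1136, so a lower call lost there says little about any single gene. Psmd3 and Psmd8, also of the lid, had log2 fold changes of -0.54 and -0.52 without overlap, beside 25.7% of all tested genes that lay below without overlap. Psmd4, a ubiquitin receptor and the most abundant of the 11, was at 155 to 195 TPM in control and at 95.2 to 168 TPM in treated libraries, which overlapped, and so did the least abundant, Psmd11.

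The 7 assembly chaperones averaged 14.7 to 45.6 TPM, the highest being Psmg4, and had log2 fold changes from -0.66 to -0.22. Psmd5, which holds base ATPases before the cap is complete, was at 26.8, 33.5, 25.1 and 32.1 TPM in control and at 22.6, 19.8 and 13.1 TPM in treated libraries. Its log2 fold change of -0.66 had a limma adjusted p of 0.0621, and it passed when the filter was raised to 5 TPM (0.0448) and with robust variance estimation (0.0378). It was -0.33 with the highest transcript row (limma adjusted p = 0.305) and -0.48 with the replicate block (0.318). Psmd10 and Psmd9, the other base chaperones, had log2 fold changes of -0.49 and -0.51. Neither overlapped, beside 25.7% of all tested genes that lay below without overlap. Psmf1, which encodes the inhibitor PI31, was at 18.6 to 23.5 TPM in control and at 12.8 to 20.4 TPM in treated libraries (log2 fold change -0.27, limma adjusted p = 0.405).

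Another 4 genes matched the naming rule without adding to a proteasome in these samples. Psma8 and Psmb11, the alternative core genes of testis and of thymic epithelium, stayed under the filter, with highest values of 0.36 and 0.03 TPM, and so were left untested. Psme3ip1 encodes a protein that binds the Psme3 product and had a log2 fold change of -0.32 (SE 0.24, limma adjusted p = 0.367). Psmc3ip, which is named after a binding partner and acts in meiotic recombination, fell. The control mean was 8.81 ± 1.07 TPM (SD, n = 4) and the treated mean 4.79 ± 1.81 TPM (SD, n = 3). It was at 7.87, 10.2, 9.06 and 8.09 TPM in control and at 5.40, 6.22 and 2.76 TPM in treated libraries, for a log2 fold change of -0.81 (SE 0.25, limma adjusted p = 0.0483), and is named after its value was seen. That call was lost without any 1 of the 4 control libraries (limma adjusted p from 0.0746 to 0.111) and without the third treated library (0.0719, at -0.52). It was also lost with a pseudocount of 5 (0.0511), no filter (0.145), rescaling without mitochondrial and ribosomal protein genes (0.0654), the highest transcript row (0.205, at -0.44) and the replicate block (0.278). Psmc3ip overlaps Mlx in RefSeq, so the reads assigned to it are uncertain.

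Genes that work with the proteasome were taken from lists fixed by name. The median of 19 tested partners outside the Psm names was -0.24 on the log2 scale, the same as over all tested genes. Of these 19, 0 rose and 1 fell, beside 4.3% and 7.59% of all tested genes. The 1 was Nfe2l3, a relative of the factor NFE2L1 that drives proteasome gene transcription when degradation is impaired. Nfe2l3 had a control mean of 38.2 ± 1.41 TPM (SD, n = 4) and a treated mean of 20.2 ± 8.36 TPM (SD, n = 3), for a log2 fold change of -0.96 (SE 0.23, limma adjusted p = 0.0171). That call was lost without treated replicate 2 (limma adjusted p = 0.0568), without the third treated library (0.0638) and with the replicate block (0.164). Nfe2l1 itself had a log2 fold change of -0.58 (limma adjusted p = 0.0549) and Nfe2l2, the oxidative stress factor, -0.61 (0.0589). Neither overlapped, beside 25.7% of all tested genes that lay below without overlap. Among 18 genes of ubiquitin supply and delivery 0 passed in either direction, with a median of -0.29. Faf2 and Vcp, which extract ubiquitin-tagged proteins, had log2 fold changes of -0.58 and -0.57.

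Downstream of the core, 0 of 9 peptidases that trim or destroy its products rose and 1 fell, with a median of -0.37. Over all tested genes 4.3% rose and 7.59% fell. Lap3, a leucine aminopeptidase, had a control mean of 39.7 ± 2.6 TPM (SD, n = 4) and a treated mean of 25.8 ± 3.39 TPM (SD, n = 3), for a log2 fold change of -0.61 (SE 0.19, limma adjusted p = 0.0468). That call was lost without any 1 of the control libraries (limma adjusted p from 0.110 to 0.144), without treated replicate 2 (0.101), with the highest transcript row (0.116) and with the replicate block (0.2497). Thop1 and Prep, which cleave short peptides, had log2 fold changes of -0.64 and -0.56 and did not pass. Among 12 class I peptide loading genes, which use what the immunoproteasome makes, 1 rose and 0 fell (median 0.19). Nlrc5, the transactivator of MHC class I genes, had a control mean of 27.9 ± 8.35 TPM (SD, n = 4) and a treated mean of 73.9 ± 43.7 TPM (SD, n = 3), for a log2 fold change of 1.26 (SE 0.32, limma adjusted p = 0.02003). The call was lost without treated replicate 2 (limma adjusted p = 0.0699), with the highest transcript row (0.0512) and with the replicate block (0.110). The endoplasmic reticulum chaperones Calr and Pdia3 had values of -0.55 and -0.47.

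In the interferon gamma signalling list 1 of 15 genes rose and 1 fell (median 0.19), beside 4.3% and 7.59% of all tested genes. With median-of-ratios scaling 5 rose, beside 8.71% of all tested genes. Ifng, the cytokine itself, rose, with a control mean of 2.83 ± 0.994 TPM (SD, n = 4) and a treated mean of 27.1 ± 14.7 TPM (SD, n = 3), for a log2 fold change of 2.79 (SE 0.31, limma adjusted p = 0.000277). The receptor chain gene Ifngr2 fell by 0.84 on the log2 scale (limma adjusted p = 0.0307), from 24.6 to 13.8 TPM, while Ifngr1 had a log2 fold change of 0.86 (0.0754). The Ifngr2 call was lost without control replicate 2 (limma adjusted p = 0.0724), control replicate 3 (0.0606), treated replicate 2 (0.0768) or the third treated library (0.0757), and with the replicate block (0.289). T cell identity sums were 8.4-fold the control mean in the libraries where Ifng and Nlrc5 were higher, and their part in these values was not tested.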

How the data were processed

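Per the labels' protocols, RNA was extracted with TRIzol, poly(A)-selected and made into stranded libraries. The deposited values are TPM, computed by the authors for 149132 transcripts that are named only by gene symbol. Per the submitters' processing notes, fastp, HISAT2, StringTie and the build mm39 were used, without roles or versions, and the program behind the TPM was not given in the sources used here. TPM is scaled to the same total per library and carries no depth, so the depth is unknown and no counting interval was computed.

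TPM was summed per symbol, leaving out 1001 rows without one. The 14967 genes that reached 1 TPM in 3 or more libraries were tested on log2(TPM + 1), a scale that understates changes of low genes, in R 4.3.3 with limma 3.58.1, an intensity trend and Benjamini-Hochberg adjustment. The model was tested on simulated data drawn independently for each gene, so shifts shared by all genes of a library were not covered. For ratios a two-sided exact permutation test used the absolute difference of means. Named genes are the 9 catalytic pair and PA28 genes, in each role the 3 members of smallest p and those of highest and lowest mean TPM, and up to 3 genes per pathway list. One gene that this rule names is not reported here. The members and lists were chosen with earlier results of these data known. Columns were matched to samples by name, the third treated library only to its group. There were 0 other value columns. Alternatives changed the pseudocount, filter, scaling, transcript summing, variance model, weights and replicate block, and left out each library.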

Additional observations from a re-analysis of the deposited data

How the results depend on the processing

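All 7 libraries entered each result except where 1 was left out and in the replicate block, which held only replicates 1 and 2 of each group. No depth could be set beside the values, since TPM carries none. Over all tested genes, 643 rose and 1136 fell. These numbers were 3 and 4 with no filter, 1303 rises with median-of-ratios scaling, 2246 and 4221 with array weights and 138 falls with the replicate block. Leaving out 1 library gave 433 to 834 rises and 531 to 2910 falls, the last without treated replicate 1.

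Of the proteasome genes 1 rose and 1 fell, beside 4.3% and 7.59% of all tested genes. With median-of-ratios scaling 2 rose and 2 fell at a median of -0.11, beside 8.71% and 6.38% of all tested genes. With array weights 3 rose and 13 fell, beside 2246 and 4221 of all 14967 tested genes. After rescaling without mitochondrial and ribosomal protein genes these were 2 and 0, beside 807 and 906 of 15758. With no filter they were 0 and 0, beside 3 and 4 of 29687. The number that fell was 0 with a pseudocount of 5, with the highest transcript row and with the replicate block, and 2 with a filter of 5 TPM and with robust variance. Over all tested genes, in the same order, 1041, 990, 138, 1115 and 1470 fell. Leaving out 1 library gave 1 to 2 rises and 0 to 8 falls. The 8 came without treated replicate 1, where 2910 of all 14967 tested genes fell. Replicate numbers 1 and 2 occur in both groups, and same-numbered libraries had correlations of deviations of -0.02 and -0.09. So few libraries cannot show whether same-numbered ones share an animal or a batch, and the labels do not say.

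Psme1 changed sign with median-of-ratios scaling (0.14), rescaling (0.0250), array weights (0.11), the replicate block (0.0715) and in a range from -0.26 to 0.11 when 1 library was left out. Psme3 was at 0.0173 and 0.00413 and Psmb1 at 0.0448 and 0.0223 with median-of-ratios scaling and array weights. Psmb10 ranged from -0.10 to 0.35, and the Psme2 to Psme3 ratio from -0.14 to 0.0680, over libraries left out. Ratio tests without 1 library cannot reach an adjusted p under 0.05 and say nothing about stability.

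With median-of-ratios scaling the partner list had 1 rise, 2 falls and a median of 0.0301, ubiquitin supply 1 fall and a median of -0.0280, peptide loading 2 rises and a median of 0.46, interferon signalling 5 rises (4 after rescaling) and the peptidases a median of -0.10. With median-of-ratios scaling 8.71% of all tested genes rose and 6.38% fell. Over libraries left out, falls ranged from 0 to 5 for partners, 0 to 3 for ubiquitin supply, 0 to 3 for peptidases, 0 to 2 for peptide loading (rises 0 to 1, median -0.10 to 0.40) and 0 to 1 for interferon signalling (rises 1 to 4). Over all 14967 tested genes the falls ranged from 531 to 2910 and the rises from 433 to 834. The 5 partners and the 2910 genes both fell without treated replicate 1. The cause of these changes was not tested.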
